A study of Homo sapiens with 4 samples.

Results

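Annexins are proteins that bind acidic membrane phospholipids, such as phosphatidylserine, when calcium rises. They share a core of annexin repeats and differ in a short N-terminal tail, through which several of them bind S100 proteins. ANXA1 is known as a glucocorticoid-induced protein that signals through formyl peptide receptors, ANXA2 as a partner of S100A10 and a co-receptor of plasminogen at the cell surface, and ANXA5 as the protein used to stain cells that expose phosphatidylserine.

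The 10 annexin genes ANXA1, ANXA2, ANXA3, ANXA4, ANXA5, ANXA6, ANXA7, ANXA8, ANXA10 and ANXA11 were taken by symbol from the 23228 genes counted in each sample. The family was chosen by a measured value, the higher ANXA1 transcript level after treatment in these same samples, so the ANXA1 difference is given as a description with no test. The question was whether the other annexins showed it as well. RNA came from cells labelled SKOV3, an established human ovarian cancer line, that were sorted for aldehyde dehydrogenase activity (ALDH+) and grown as spheroids in medium with EGF, bFGF, hydrocortisone and insulin. For 24 h these ovarian cancer stem cells (OCSCs) received vehicle (2 samples) or 5 µM LY500307, an agonist of estrogen receptor beta (2 samples), and both groups thus shared the line, the sort and the hydrocortisone. Nothing in the labels states whether the replicates were separate cultures, so the spread between them may be technical.

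Each sample had between 28841701 and 34943882 reads counted on genes. The LY500307 samples differed from each other more than the vehicle samples did, with a chi-square per degree of freedom of 42.5 against 5.16, and values are therefore also given for each LY500307 sample. The labelled cell type was checked against marker lists. Of 8 epithelial markers, PAX8 had 0 reads in every sample, and KRT7, KRT19 and CDH1 had between 0 and 4 reads. MUC16 had 1 to 6 reads and KRT8 9 to 33 reads. EPCAM (194 to 240 CPM, a read count scaled to the TMM-normalized library size) and KRT18 (23.5 to 31.8 CPM) were expressed. SKOV3 is known for amplification of ERBB2 and for loss of CDKN2A. In these samples ERBB2 had 48.7 to 59.4 CPM and CDKN2A had 25.8 to 31.9 CPM (both chosen after their values were seen). LIN28A had 275 to 288 CPM and LIN28B 408 to 568 CPM, also named after their values were seen. ESR2, which encodes estrogen receptor beta, had 7 to 12 reads, and ESR1 had 0. Of the leukocyte markers reported here, PTPRC and CD3E had 0 to 4 reads and CD14 had 6 to 22 reads, whereas CD68 had 11.5 to 17.9 CPM. Of 4 endothelial markers, PECAM1, VWF and CDH5 had 0 to 11 reads, whereas KDR had 133 to 151 CPM. The 6 fibroblast markers together had 906 to 1169 CPM, most of it from collagen genes. The expressed CDKN2A and the absent PAX8, KRT7 and KRT19 go against the label, whereas the epithelial markers EPCAM and KRT18 were expressed. The levels of ERBB2, LIN28A and LIN28B were not compared with those of other lines. The cells are still called by their label here. The identity of the line was not tested.

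**Figure D1:**
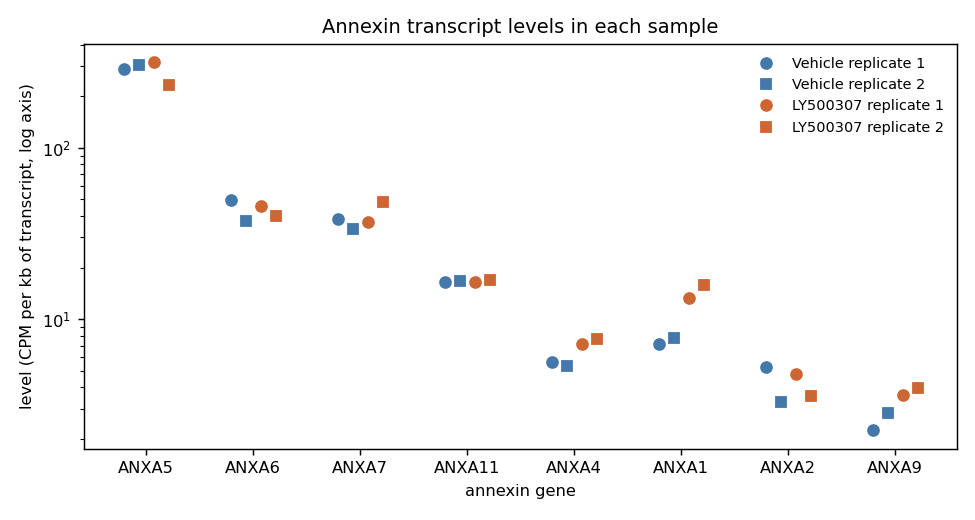
The level of each expressed annexin in each sample, as CPM per kilobase of transcript on a log axis; circles are replicate 1 and squares replicate 2 of vehicle (blue) and LY500307 (orange). ANXA5 lies between 234 and 315, and ANXA1, ANXA4 and ANXA9 are the genes with both orange points above both blue points.

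The family was led by ANXA5. Divided by the length of its reference transcript, the ANXA5 level was 287 and 305 CPM per kb in the vehicle samples, which placed its mean above 99.2% of 12386 ranked genes. ANXA6, an annexin with a longer repeat core, followed at 49.8 and 37.5 CPM per kb, and ANXA7, also called synexin, at 38.5 and 33.6. Within samples, ANXA6 was above ANXA7 in both vehicle samples and in LY500307 replicate 1 (45.7 against 36.7 CPM per kb). In LY500307 replicate 2 it was below ANXA7 (39.8 against 48.1), so their order did not hold in every sample. ANXA11, which has a long N-terminal tail, was steady at 16.5 and 16.7 CPM per kb. ANXA1 (7.12 and 7.71), ANXA4 (5.59 and 5.32) and ANXA2 (5.24 and 3.26) came below the median of all ranked genes. With LY500307, ANXA1 stood at 13.3 and 15.8 CPM per kb, still below the 16.4 and 16.9 of ANXA11. The order depends on the reference transcripts, which had 6734 bases for ANXA11, 2443 for ANXA7 and 1401 for ANXA1. Not divided by length, the vehicle mean of ANXA11 was 112 CPM, above the 88.1 of ANXA7. On that scale, ANXA1 had 18.7 and 22.1 CPM with LY500307, where ANXA11 had 110 and 114.

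The remaining members were at or near 0. ANXA8 had 0 reads in all 4 samples, ANXA10 had 0 and 0 reads with vehicle and 2 and 1 reads with LY500307, and ANXA3 had 3 and 0 reads and then 2 and 3 reads. These values are at or under 3 reads, the limit that a count of 0 allows, which corresponds to 0.0864 to 0.106 CPM, so no difference was detectable at this depth. In all, 7 of the 10 members passed the filter on low counts. Together the 10 genes took 852 and 833 CPM in the vehicle samples and 893 and 777 CPM in the LY500307 samples, and ANXA5 alone made up between 49.2% and 60% of the reads of the family.

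ANXA2 is commonly abundant in epithelial cells, and its low level here has to be read with its pseudogenes. The reads were 50 bases long, and alignments to more than 1 place were tallied apart from the genes. Of the 1505 stretches of 50 bases in the ANXA2 reference transcript, 44.3% also occur, base for base, elsewhere in the genome, mainly in ANXA2P2 (38.2%). The coding sequence of ANXA2 matched that of the processed pseudogene ANXA2P2 at 98.4% of 1017 aligned bases, ANXA2P1 at 93.8% of 926 and ANXA2P3 at 92.3% of 1007. The stretch below, from base 46 to base 105 counted from the A of the ANXA2 start codon, shows how little separates them; capitals mark bases that differ from ANXA2, and the sequences were read from GRCh37.
ANXA2: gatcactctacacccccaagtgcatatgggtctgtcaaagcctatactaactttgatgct
ANXA2P2: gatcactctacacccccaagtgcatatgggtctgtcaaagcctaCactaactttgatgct
ANXA2P1: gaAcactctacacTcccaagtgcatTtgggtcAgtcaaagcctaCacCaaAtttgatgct
ANXA2P3: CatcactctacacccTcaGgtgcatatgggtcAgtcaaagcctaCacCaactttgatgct
In this stretch ANXA2P2 has the single substitution T90C, while ANXA2P1 has 7 differences and ANXA2P3 has 6. For ANXA8, 73.9% of the 50-base stretches recur elsewhere, mostly in its copies ANXA8L1 and ANXA8L2, which also had 0 reads in each sample. ANXA1, ANXA5, ANXA6, ANXA7 and ANXA9 had none that recur, and ANXA4 had 0.5% and ANXA11 1.35%. The counts of ANXA2 and ANXA8 are thus uncertain, and how many reads were lost was not tested. Most ANXA2 stretches do not recur elsewhere. The vehicle mean of ANXA2 was 6.60 CPM, beside 3.67 for ANXA2P2, 0.833 for ANXA2P3 and 0.0176 for ANXA2P1. Whether lost reads account for the low ANXA2 level was not tested.

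**Figure D2:**
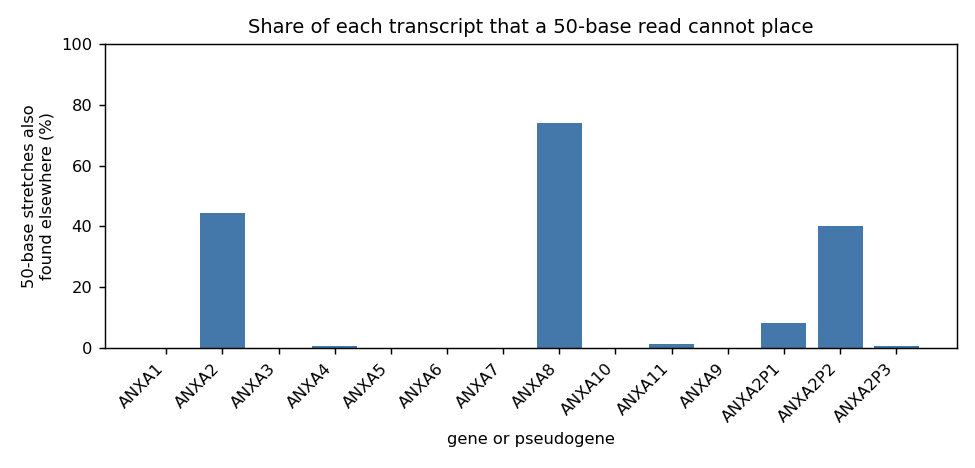
The percentage of all 50-base stretches of each reference transcript that also occur exactly outside the gene in GRCh37. The bars of ANXA8 (73.9%), ANXA2 (44.3%) and ANXA2P2 (40%) stand out, and that of ANXA1 is at 0.

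Of the 7 members that could be compared, ANXA1 had the largest difference between LY500307 and vehicle. It is a plus-strand gene of 13 exons between positions 75766781 and 75785309 of chromosome 9 (GRCh37). Vehicle replicates 1 and 2 had 299 and 307 reads, and LY500307 replicates 1 and 2 had 649 and 715. After normalization, levels of 9.98 and 10.8 CPM with vehicle stood against 18.7 and 22.1 CPM with LY500307. The means were 10.4 CPM (SD 0.584, n = 2) and 20.4 CPM (SD 2.42, n = 2). Both treated samples were above both vehicle samples, as for 24.2% of all genes tested, and the gap was larger than the spread within either group. The family was chosen by this difference, so both statements only describe it. In edgeR the log2 fold change was 0.97 (SE 0.16). Relative to the vehicle mean, the difference was 0.85 on the log2 scale in LY500307 replicate 1 and 1.09 in replicate 2.

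Promoters are a known place of receptor binding, and the 250 bases upstream of the ANXA1 start are shown, followed by those of ANXA4, the other of the 7 members tested with both treated samples above both vehicle samples. They come from RefSeq (GRCh38.p14) and were found once, unchanged, in GRCh37, at chr9:75766531-75766780 for ANXA1 and chr2:69870690-69870939 for ANXA4, both on the plus strand. For ANXA4 the table holds 2 starts, of which the more upstream is shown. Capitals mark matches on either strand to the TATA box (TATAAA), the CCAAT box (CCAAT), the SP1 GC box (GGGCGG) and the estrogen response element half-site (GGTCA).
ANXA1 upstream: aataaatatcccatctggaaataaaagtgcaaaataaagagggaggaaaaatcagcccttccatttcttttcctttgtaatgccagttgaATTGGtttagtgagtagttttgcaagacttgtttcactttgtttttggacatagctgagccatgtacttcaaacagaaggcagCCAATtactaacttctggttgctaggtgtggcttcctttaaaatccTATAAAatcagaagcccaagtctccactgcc
ANXA4 upstream: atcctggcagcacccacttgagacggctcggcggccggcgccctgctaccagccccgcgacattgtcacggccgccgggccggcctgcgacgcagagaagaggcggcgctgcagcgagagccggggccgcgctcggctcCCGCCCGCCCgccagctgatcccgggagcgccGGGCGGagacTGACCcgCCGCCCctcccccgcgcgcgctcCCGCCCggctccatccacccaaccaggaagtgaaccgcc
The ANXA1 stretch was 38.4% G or C, where the median of 35116 promoters was 58.0%, and held a TATA box 31 bases before the start and CCAAT boxes 77 and 160 bases before it. The ANXA4 stretch was 77.2% G or C with 5 GC boxes, of which a pair overlap, and 1 half-site 69 bases before the start, while the other ANXA4 start had 3 GC boxes and 0 half-sites. Half-sites were also present upstream of ANXA6 (1 at each of 2 starts) and ANXA11 (4 at one start and 1 at another). The log2 fold changes of these genes were -0.03 and 0.004. Outside the members, ANXA9 had 1 half-site, 48 bases before its start, and a log2 fold change of 0.57. A link between half-sites and the differences was not tested. A TATA box was present in 10.7% of all promoters of this length, a CCAAT box in 32.0%, a GC box in 42.6% and a half-site in 32.6%. The full estrogen response element (GGTCA and TGACC with any 3 bases between them) was found in 0.0399% of all promoters, and the full glucocorticoid response element (AGAACA and TGTTCT with any 3 bases between them) in 0.00285%. Neither was found upstream of the 9 members that the table holds, and these letters say nothing about sites elsewhere.

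No other member reached a log2 fold change of 0.5 in either direction. At the criteria used for this study, an unadjusted p below 0.05 with an absolute log2 fold change above 0.5, 0 of the other 6 members tested were called. ANXA1 met the criteria, but the family was chosen by its difference in these samples, so this adds no information on the family. Of all 14473 genes tested 4.62% were called, 2.76% as higher and 1.86% as lower. After Benjamini-Hochberg adjustment of the quasi-likelihood p-values, 0 genes were below 0.05 in edgeR, where 1678 were below it unadjusted, and 16 genes were below it in DESeq2. Of the other 6 members tested, only ANXA4 had both LY500307 samples above both vehicle samples. Of all genes tested 24.2% showed this, and 48.6% had groups that did not overlap in either direction. The median log2 fold change of the 7 members, with ANXA1 included, was 0.004, and that of all genes tested was 0. With 2 samples per group, the smallest two-sided p of an exact permutation test is 0.333.

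**Figure D3:**
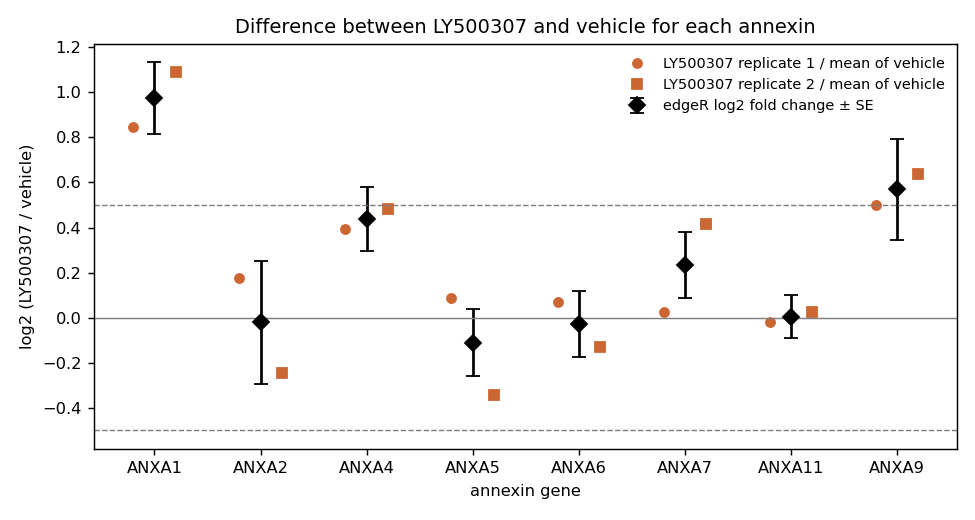
Log2 fold change between LY500307 and vehicle for the 7 annexins tested and ANXA9; diamonds with bars are edgeR estimates with their standard error, small orange symbols are each LY500307 sample against the vehicle mean, and dashed lines mark 0.5 in either direction. ANXA1 lies at 0.97, ANXA9 at 0.57 and ANXA4 at 0.44, and for ANXA2, ANXA5, ANXA6 and ANXA11 the LY500307 samples fall on opposite sides of 0.

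ANXA4, an annexin of epithelial membranes, had 444 and 401 reads with vehicle and 659 and 653 reads with LY500307. These were 14.8 and 14.1 CPM against 19.0 and 20.2 CPM, so the groups did not overlap. The log2 fold change of 0.44 (SE 0.14) was below the limit of 0.5, and for that reason alone the criteria were not met. Its unadjusted p in edgeR was 0.0145, where 11.6% of all genes tested were below 0.05, and its adjusted p was 0.422. Both treated samples contributed, with 0.39 for replicate 1 and 0.48 for replicate 2 on the log2 scale. The gene spans chromosome 2 from 69871557 to 70054244 in GRCh37.

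ANXA7, which binds membranes during secretion, had 94.1 and 82.2 CPM with vehicle and 89.8 and 118 CPM with LY500307, a log2 fold change of 0.23 (SE 0.15, edgeR adjusted p = 0.508). Replicate 2 of the LY500307 group stood at 0.42 above the vehicle mean on the log2 scale, whereas replicate 1 was at 0.03. ANXA11 had 111 and 113 CPM with vehicle and 110 and 114 CPM with LY500307. Its log2 fold change was 0.004 (SE 0.10, edgeR adjusted p = 0.989), the smallest of the members, with samples of each group within 0.05 of each other on the log2 scale.

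ANXA5 had 470 and 500.3 CPM with vehicle and 516 and 383 CPM with LY500307. Replicate 1 of the treated group was the highest of the 4 samples and replicate 2 the lowest, so the groups overlapped. The log2 fold change was -0.11 (SE 0.15, edgeR adjusted p = 0.757). The Annexin V stain of apoptosis assays reads phosphatidylserine on the cell surface with added protein, and this transcript is not what it measures. ANXA6 had 144 and 108 CPM and then 132 and 115 CPM, with both treated samples inside the vehicle range (log2 fold change -0.03, SE 0.15, edgeR adjusted p = 0.944). ANXA2 had 8.14 and 5.07 CPM and then 7.46 and 5.57 CPM, again within the vehicle range, with a log2 fold change of -0.02 (SE 0.27, edgeR adjusted p = 0.979). Its vehicle samples differed by 0.68 on the log2 scale, with 244 and 144 reads, the widest replicate gap of the members tested. When the reads of ANXA2P1, ANXA2P2 and ANXA2P3 were added to those of ANXA2, the log2 fold change was 0.12 (SE 0.19).

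As a description of the gene by which the family was chosen, ANXA1 can also be set against other members within each sample. Per read of ANXA11 there were 0.0900 and 0.0959 reads of ANXA1 with vehicle and 0.169 and 0.194 with LY500307. Per read of ANXA4 there were 0.673 and 0.766, and then 0.985 and 1.09. ANXA1 thus made up 1.17% and 1.30% of the annexin reads with vehicle and 2.09% and 2.85% with LY500307. The shares of ANXA2, ANXA5, ANXA6, ANXA7 and ANXA11 overlapped between the groups. In bulk RNA, more cells that express a gene and more RNA per cell cannot be told apart.

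Outside the 10 members, 7 further annexin genes and pseudogenes were counted. ANXA9, a divergent annexin on chromosome 1, had 104 and 125 reads with vehicle and 193 and 198 reads with LY500307. These were 3.47 and 4.40 CPM against 5.56 and 6.13 CPM, both treated samples being higher. The log2 fold change of 0.57 (SE 0.22) met the criteria in edgeR, with an adjusted p of 0.428, but not in DESeq2 (unadjusted p = 0.0668), nor without vehicle replicate 1 (log2 fold change 0.41) or LY500307 replicate 2 (unadjusted p = 0.0643). ANXA13 had 0 reads in all samples. ANXA2P1 had 0 and 1 reads with vehicle and 12 and 9 reads with LY500307 and did not pass the filter on low counts; it lies on chromosome 4 from 154228944 to 154229869, inside TRIM2 and on the opposite strand to it. The other pseudogenes differed less, ANXA2P2 with 101 and 113 and then 135 and 155 reads, and ANXA2P3 with 32 and 17 and then 47 and 18 reads.

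Partners of annexins were then examined. S100 proteins are small calcium-binding dimers that hold pairs of annexins, and 2 of the 5 tested partners, S100A4 and S100A10, met the criteria, both upward, where 2.76% of all genes tested were called higher. S100A10, which binds ANXA2, had 18 and 13 reads with vehicle and 38 and 40 reads with LY500307 (log2 fold change 1.13, SE 0.45, edgeR adjusted p = 0.428). The call was lost in DESeq2 (unadjusted p = 0.0987) and with the replicate block (unadjusted p = 0.0504), and in the fits without vehicle replicate 2 (unadjusted p = 0.117), LY500307 replicate 1 (0.133) or LY500307 replicate 2 (0.206). S100A4 had 29.2 and 28.4 CPM and then 32.4 and 58.5 CPM, a log2 fold change of 0.66 (SE 0.24, edgeR adjusted p = 0.422) that was 0.17 without LY500307 replicate 2. S100A11, the partner of ANXA1, had 20.5 and 26.6 CPM and then 29.8 and 26.1 CPM, which overlap (log2 fold change 0.25, SE 0.16). S100A6 and S100A1 did not meet the criteria (log2 fold changes 0.32 and -0.31), and S100A12 and S100B had 0 reads throughout.

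Receptors of ANXA1 were not detected: FPR1, FPR2 and FPR3 had 0 reads in all 4 samples, which allows up to 0.106 CPM in any of them. None of the 4 interactors tested met the criteria, where 4.62% of all genes tested did. PLA2G4A, the cytosolic phospholipase A2 that ANXA1 is known to inhibit, had 8.98 and 8.16 CPM and then 9.51 and 8.54 CPM. TRPM7, the channel kinase that phosphorylates ANXA1, had a log2 fold change of -0.04 (SE 0.09), and the calcium-binding proteins PDCD6 and SRI, which bind ANXA7 or ANXA11, had 0.10 (SE 0.10) and 0.19 (SE 0.15).

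Of the plasminogen activation genes, 1 of 3 tested met the criteria, upward, where 2.76% of all genes tested were called higher. PLAU, also the median of the 3 genes, is the urokinase that turns plasminogen into plasmin and had 39.4 and 39.7 CPM with vehicle and 55.8 and 59.4 CPM with LY500307 (log2 fold change 0.54, SE 0.11, edgeR adjusted p = 0.422). Without LY500307 replicate 2 its log2 fold change was 0.498, just under the limit. The receptor gene PLAUR had 28.0 and 29.7 CPM and then 32.3 and 38.6 CPM, without meeting the criteria (log2 fold change 0.30, SE 0.14), and PLAT rested on 11 to 47 reads.

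Among membrane repair genes, 1 of 8 tested met the criteria, upward, where 2.76% of all genes tested were called higher. AHNAK, a giant scaffold protein that binds S100A10 and ANXA2, had 105 and 94.6 CPM with vehicle and 140 and 144 CPM with LY500307, a log2 fold change of 0.51 (SE 0.10, edgeR adjusted p = 0.422). The value was near the limit and was 0.44 without vehicle replicate 2 and 0.49 without LY500307 replicate 2. The calpain genes CAPN1, CAPN2 and CAPNS1 had log2 fold changes of 0.24, 0.10 and 0.07, below the limit.

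Genes that move phosphatidylserine across the membrane, and with it the ligand of annexins, had 0 of 8 called, where 4.62% of all genes tested were. The median log2 fold change of the 8 genes was 0.07. The flippase subunit TMEM30A, the most abundant of them, had 212 and 203 CPM and then 207 and 243 CPM (log2 fold change 0.12, SE 0.11), the scramblase ANO6 had a log2 fold change of -0.18 (SE 0.11), and the scramblase XKR8 had 7.47 and 7.42 CPM and then 8.73 and 10.8 CPM (0.39, SE 0.19). Copines, another family of calcium-dependent phospholipid-binding proteins, had 0 of 5 called, against the same 4.62% of all genes tested. CPNE3, the most abundant, had 181 and 166 CPM and then 174 and 179 CPM.

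Glucocorticoid-induced genes were included because ANXA1 is known as one and the medium held hydrocortisone in both groups. None of the 7 tested, the receptor gene NR3C1 among them, met the criteria, where 4.62% of all genes tested did. The median log2 fold change of the 7 was 0.08. FKBP5 had 402 and 421 CPM with vehicle and 390 and 308 CPM with LY500307 (log2 fold change -0.24, SE 0.13), PER1 had a log2 fold change of -0.10 (SE 0.09), and TSC22D3, which encodes GILZ, had 7.17 and 8.69 CPM and then 8.70 and 12.1 CPM (0.39, SE 0.22). The receptor gene NR3C1 had between 44 and 71 reads per sample.

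**Figure D4:**
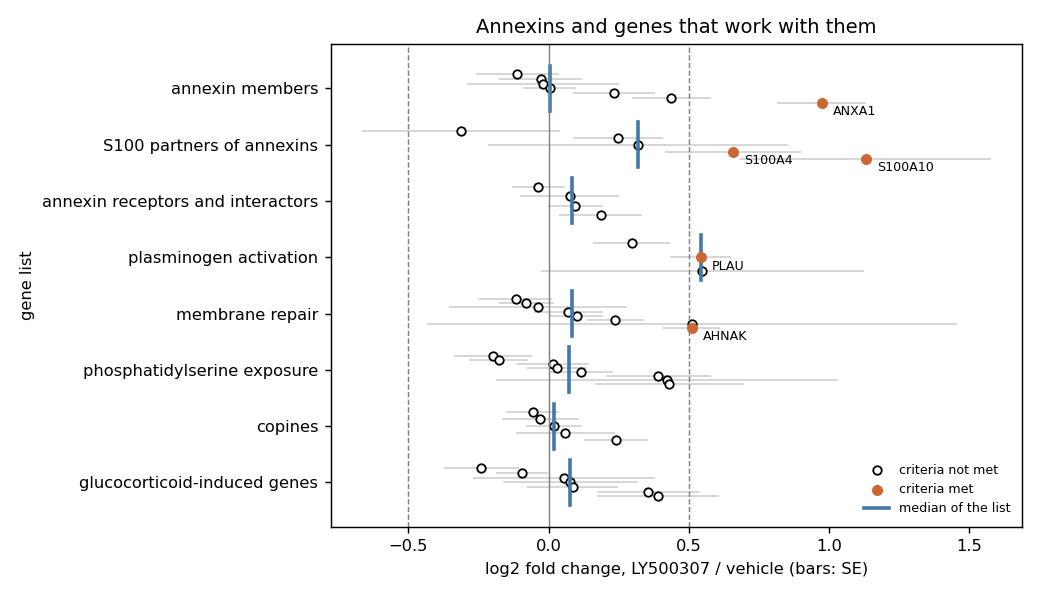
Log2 fold changes of the 7 annexin members tested (ANXA9 is not plotted here) and of the tested genes of 7 lists of related genes, with standard errors as grey bars; filled orange points met the criteria, open points did not, and blue lines are list medians. The 5 filled points are ANXA1, S100A4, S100A10, PLAU and AHNAK, all to the right of 0.5.

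Finally, the genes whose profile over the 4 samples lay closest to that of ANXA1 were listed, by Euclidean distance of log2 CPM centred on the vehicle mean, among 11234 other genes with at least 100 reads in every sample. They were MAP1LC3A (distance 0.19), ALPPL2 (0.29), CRYL1 (0.30), C19orf20 (0.32) and PRAMEF12 (0.32). MAP1LC3A, which encodes an LC3 protein of autophagosomes, had 3.74 and 4.22 CPM with vehicle and 6.40 and 9.06 CPM with LY500307. ALPPL2 is a placental-type alkaline phosphatase gene with near-identical copies, and had 5.17 and 5.84 CPM and then 9.62 and 9.59 CPM. The measure rests on 4 samples and on the same difference for which ANXA1 was chosen, and it is a description.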

How the data were processed

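RNA-seq counts were analysed for 2 vehicle and 2 LY500307 samples, grouped by sample title. The authors aligned reads to hg19 with TopHat2 (2.0.8b per the labels), and deposited raw counts per gene symbol from HTSeq, without normalization. Strand setting and HTSeq version are not given in the sources used here, so genes that overlap on opposite strands are uncertain. The methods describe stranded mRNA libraries, the labels total RNA libraries.

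The counts were tested with edgeR 4.0.16 in R 4.3.3 (TMM, filterByExpr, quasi-likelihood test, Benjamini-Hochberg adjustment over 14473 genes), and the procedure was tested on simulated data. The SE was taken as the absolute log2 fold change over root F. Alternatives were DESeq2 1.42.0, its size factors, library totals, 2 other filters, a replicate block, each sample left out, and summed copies of ANXA2 and ANXA8. Levels per kb use GENCODE v44lift37 reference transcripts, found for 85.6% of genes tested. Named genes are all annexin rows, list genes that met the criteria, otherwise the most abundant ones, and the 5 genes nearest ANXA1. Others were named after their values were seen. Some list genes are not reported here. The members and lists were chosen with earlier results of these data known. Same-numbered samples had a correlation of -0.07 in their deviations from group means across 14473 genes, and the numbers were taken as names without pairing. The 5 tally lines of HTSeq were left out; reads on no gene were 25.5% to 30.8% of uniquely aligned reads.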

Additional observations from a re-analysis of the deposited data

How the results depend on the processing

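ANXA4 and ANXA7 kept their direction and stayed outside the criteria in every alternative, and 0 members other than ANXA1 were called in any of them. ANXA1, by which the family was chosen, is listed as a description. With a sample left out, log2 fold changes were 0.85 to 1.09 (ANXA1), 0.395 to 0.485 (ANXA4) and 0.03 to 0.42 (ANXA7); a lone sample was assumed to vary like the other group. Members near 0 changed sign. ANXA2 was at 0.015 with library totals alone, 0.001 with the replicate block, 0.12 when summed with its pseudogenes, and between -0.32 and 0.36 with a sample left out. ANXA6 was at 0.009 with library totals alone and between -0.22 and 0.19 with a sample left out, where ANXA5 ranged from -0.34 to 0.09 and ANXA11 from -0.016 to 0.028. ANXA5 was positive only without LY500307 replicate 2. ANXA9 had 0.57 in DESeq2, where it missed the criteria, and 0.41 to 0.75 with a sample left out.

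The number of genes called lay between 352 (without LY500307 replicate 2) and 1987 (without LY500307 replicate 1), against 669 with all samples. Of the 7 annexin genes and pseudogenes beyond the members, 2 were called with all genes of at least 1 count, and 0 to 2 with a sample left out, 0 without vehicle replicate 1 or LY500307 replicate 2. Of the S100 partners, 1 was called in DESeq2, 1 with the replicate block, and 0 to 2 with a sample left out, 0 without LY500307 replicate 2. These ranges were 0 to 2 for plasminogen activation genes (0 without LY500307 replicate 2, 2 without vehicle replicate 2), 0 to 1 for membrane repair genes (0 without LY500307 replicate 2), and 0 to 1 for phosphatidylserine exposure genes (1 without LY500307 replicate 1), copines (1 without vehicle replicate 2) and glucocorticoid-induced genes (1 without either LY500307 replicate). The replicate block changed no other call on the genes reported here. The cause of these changes was not tested. ANXA8 summed with its copies had 0 reads and gave no value. At this depth, ANXA3, ANXA8 and ANXA10 could not be compared.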
